A study of Mus musculus with 12 samples.

Results

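The comparison set 2 libraries from mouse embryos labelled p53 wild type and taken 3 h after X-irradiation against 2 from untreated embryos with the same label. They are 4 of the 12 RNA-seq libraries in the series, chosen by their labels, and each carries the number 1 or 2. All embryos were at embryonic day 9.5. The irradiated ones received 30 Gy at 5 Gy per minute while the pregnant mouse lay in the irradiator. Set beside them were 2 libraries labelled p53 wild type at 1 h, 2 labelled p53 -/- at 3 h and 2 labelled p53 -/- and untreated. The labels do not say how many embryos went into a library, which p53 -/- allele was used, or whether the untreated embryos were sham-irradiated. Polyadenylated RNA of the embryo was sequenced, and the values are TPM, the relative abundances of transcripts after their lengths and the size of the library are allowed for. Of 53647 gene IDs, 15535 were tested, those that came to 1 TPM or more in 2 or more of the 12 libraries. The series title names p21 (Cdkn1a), ccng1, foxo3b and fbxw7, so the question is how these genes and others answer to irradiation with and without p53.

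Cells with broken DNA can stop before mitosis. The genes that build the spindle and run cell division are transcribed in late G2 and mitosis, when the transcription factors B-MYB and FOXM1 join the MuvB complex at their promoters, and NF-Y binds CCAAT boxes there. In resting or arrested cells the DREAM complex holds the same promoters shut through the cell cycle homology region, an element close to the transcription start. p53 is best known for inducing p21, an inhibitor of cyclin-dependent kinases that favours the DREAM complex, but checkpoint kinases can also hold cells in G2 without p53. Transcripts of many mitotic genes are made anew in each cycle, so their level in a tissue also follows how many cells are in G2 and mitosis.

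Trp53, which encodes p53, had 93.7 and 68.03 TPM in the 3 h libraries labelled wild type and 114 and 211 TPM in untreated ones. At 1 h it had 114 and 66.8 TPM. In the libraries labelled p53 -/- it had 242 and 220 TPM at 3 h and 265 and 79.1 TPM without treatment. The label p53 -/- therefore did not go with a low Trp53 level, and the groups are called by their labels throughout. Within the wild type label the log2 fold change of Trp53 at 3 h was -0.95 (SE 0.535, limma adjusted p = 1), and its groups did not overlap. Untreated library 2 stood apart in Trp53 under both labels. Under the label wild type it had 211 TPM, and the other libraries of that label lay between 66.8 and 114 TPM. Under the label p53 -/- it had 79.1 TPM, and the others of that label in the series lay between 210 and 265 TPM. Whether the labels and the embryos' genotypes match was not tested.

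The 4 libraries carried the markers of a midgestation embryo. Summed cardiac muscle markers had 1555 and 1348 TPM at 3 h and 1527 and 1566 TPM in untreated libraries, and primitive erythroid markers had 4862 and 7253 TPM against 6573 and 6541 TPM. Neural progenitor markers had 398 and 340 TPM against 368 and 358 TPM, and somite markers 129 and 118 TPM against 136 and 104 TPM. The 2 libraries of a group correlated across genes at 0.974 for 3 h and 0.973 for untreated. Each group held 1 library with Xist and 1 with Y-linked transcripts. At 3 h it was number 1 that had Xist, with 135 TPM and no Y-linked transcript, and among the untreated it was number 2, with 52.98 TPM. Sex therefore differed within both numbers, in opposite directions.

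Of the 15535 genes, 0 passed limma's test at an adjusted p under 0.05 when each group had a mean and nothing else was fitted (0% called), and 524 had an unadjusted p under 0.05 (3.37%). The smallest adjusted p, 0.0508, belonged to the mitotic kinase Plk1. In all 15 pairs of groups, same-numbered libraries shared part of their deviation from the mean of the group. With that number fitted as a replicate block, 24 genes passed (0.154%): 23 fell (0.148%) and 1 rose (0.00644%). Separate litters are not stated in the labels, so a p-value covers only the scatter of these libraries, which may be technical, and the read depth behind a TPM is unknown. In whole embryos, fewer cells of a type and less RNA per cell cannot be told apart. Of the 23 that fell, 17 stood on lists of mitosis genes, which held 114 of the 15535 tested genes. The 17 cover the kinases, B cyclins, kinesins, spindle proteins and the activator of the anaphase-promoting complex, and they include the linker histone gene H1f0. The lists were chosen with earlier results of these data known, so this count describes the genes and is not a test. The log2 fold changes of the 23 lay between -2.03 and -0.69, with a median of -1.19, against a median of 0.02 over all genes tested. The calls depended on all 4 libraries: without the untreated library 2 there was 1 call with the block, and without any of the other 3 compared libraries there were 0. Of the libraries labelled p53 -/- that share the estimate of the spread, leaving out either at 3 h left 8 calls and leaving out either untreated one left 7.

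The promoters of 5 of the fallen genes are printed because short elements near the start recur in them. These are RefSeq sequences of build GRCm38.p6, from 250 bases before to 50 bases after the start, written 5′ to 3′ on the gene's strand. Capitals mark every CCAAT and every cell cycle homology region, searched as TTTGAA or TTCGAA, on either strand, so that CCAAT may read ATTGG and TTTGAA may read TTCAAA. Plk1 lies on the plus strand at chr7:122159185-122159484, Aurka on the minus strand at chr2:172370521-172370820, Cdc20 on the minus strand at chr4:118437294-118437593 and Hmmr on the minus strand at chr11:40733388-40733687. Psrc1 lies on the plus strand at chr3:108383554-108383853, the first of 2 promoters listed for it.
Plk1: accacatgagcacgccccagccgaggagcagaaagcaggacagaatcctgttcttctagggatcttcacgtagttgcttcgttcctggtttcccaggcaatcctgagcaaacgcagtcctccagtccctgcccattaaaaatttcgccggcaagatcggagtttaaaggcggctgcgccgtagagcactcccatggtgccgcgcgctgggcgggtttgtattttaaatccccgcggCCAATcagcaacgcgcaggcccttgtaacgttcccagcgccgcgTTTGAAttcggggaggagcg
Aurka: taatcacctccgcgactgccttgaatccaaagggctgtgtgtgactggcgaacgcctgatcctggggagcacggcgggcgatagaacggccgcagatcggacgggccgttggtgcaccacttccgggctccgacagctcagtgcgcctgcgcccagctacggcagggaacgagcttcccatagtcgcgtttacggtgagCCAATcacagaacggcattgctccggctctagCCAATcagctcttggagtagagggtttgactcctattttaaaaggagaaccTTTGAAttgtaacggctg
Cdc20: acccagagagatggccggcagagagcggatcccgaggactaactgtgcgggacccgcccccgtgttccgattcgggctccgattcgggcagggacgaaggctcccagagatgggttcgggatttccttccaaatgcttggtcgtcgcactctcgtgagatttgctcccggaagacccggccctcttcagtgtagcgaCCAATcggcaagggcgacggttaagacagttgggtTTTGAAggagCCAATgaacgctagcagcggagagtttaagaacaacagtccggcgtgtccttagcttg
Hmmr: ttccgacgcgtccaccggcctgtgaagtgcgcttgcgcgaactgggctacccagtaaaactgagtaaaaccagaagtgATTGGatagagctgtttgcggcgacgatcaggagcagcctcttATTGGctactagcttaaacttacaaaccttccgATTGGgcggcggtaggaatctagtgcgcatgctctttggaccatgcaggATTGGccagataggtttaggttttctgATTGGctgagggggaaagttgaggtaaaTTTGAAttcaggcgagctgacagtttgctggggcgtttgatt
Psrc1: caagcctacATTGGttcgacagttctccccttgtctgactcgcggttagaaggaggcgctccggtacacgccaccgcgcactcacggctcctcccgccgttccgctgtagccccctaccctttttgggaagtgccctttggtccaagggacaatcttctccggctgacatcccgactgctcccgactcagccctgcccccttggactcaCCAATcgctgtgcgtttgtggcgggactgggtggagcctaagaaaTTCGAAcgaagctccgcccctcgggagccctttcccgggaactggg
In Plk1 a CCAAT began 14 bases before the start and the homology region 30 bases after it. In Aurka a pair of CCAAT boxes stood 51 and 19 bases before the start and the homology region 32 bases after it. Hmmr held 5 CCAAT boxes before the start and 1 homology region 8 bases after it. Of the 23 fallen genes, 18 matched a RefSeq promoter. A CCAAT was found in 15 of these 18 (83.3%), against 39.0% of the 10858 tested genes with a promoter and 37.9% of all 27025 promoters in the table. A homology region within the last 100 bases, those around the start, was found in 11 of 18 (61.1%), against 3.5% of tested genes and 5.3% of all promoters, and all 11 also held a CCAAT. Over the whole 300 bases, 12 of 18 held a homology region (66.7%), against 13.4% of tested genes and 19.4% of all promoters. An E2F motif, searched on both strands as TTTCCCGC, TTTCGCGC, TTTGCCGC or TTTGGCGC, was found in 0 of the 18, against 4.1% of tested genes and 2.3% of all promoters. The mitosis lists, fallen or not, had 96 genes with a promoter. Of these, 64.6% held a CCAAT, 53.1% a homology region in the last 100 bases and 11.5% an E2F motif. None of these motifs contains another. A match describes the letters in this window and is not a measurement of binding.

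Plk1 encodes polo-like kinase 1, which drives entry into mitosis and the maturation of centrosomes. It had 56.7 and 62.3 TPM in the 3 h libraries and 165 and 191 TPM in the untreated ones, so that each 3 h library held about the same share of its untreated counterpart (34.4% for number 1 and 32.7% for number 2). The log2 fold change was -1.56 (SE 0.106, limma with the replicate block, adjusted p = 0.00299). Without any 1 of the 4 compared libraries its adjusted p with the block lay between 0.0550 and 0.0954. Aurka, the Aurora A kinase of centrosomes and spindle poles, had 42.4 and 46.1 TPM at 3 h and 109 and 119 TPM in untreated libraries, far outside the spread of either pair. It fell by 1.34 on the log2 scale (SE 0.0912, adjusted p = 0.00299 with the block and 0.0823 without). Tpx2, which activates Aurora A and nucleates spindle microtubules, had 70.5 and 66.3 TPM against 159 and 155 TPM and a log2 fold change of -1.18 (SE 0.105, adjusted p = 0.0103 with the block). Other kinases of mitosis were lower without passing the test: Bub1b, a kinase-like protein of the spindle checkpoint, had 61.7 and 58.7 TPM against 94.4 and 98.9 TPM (-0.67, adjusted p = 0.257 with the block), and Nek2, a kinase of centrosome separation, had 33.1 and 29.2 TPM against 41.9 and 38.8 TPM. Of 15 mitotic kinases and checkpoint proteins tested, 6 had both 3 h values below both untreated values, where 13.1% of all tested genes did, and the median log2 fold change was -0.35.

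Cdc20, which activates the anaphase-promoting complex once all chromosomes are attached, showed one of the largest falls. It had 43.5 and 60.8 TPM at 3 h and 146 and 193 TPM in untreated libraries. Number 2 was the higher library in both groups, and the fall was alike within each number. The log2 fold change was -1.68 (SE 0.129, adjusted p = 0.0057 with the block and 0.668 without). The B-type cyclins that start mitosis fell as well. Ccnb1 had 49.0 and 88.6 TPM against 107 and 189 TPM (-1.10, adjusted p = 0.0480 with the block). Ccnb2 had 51.6 and 59.8 TPM against 96.2 and 107 TPM (-0.86, adjusted p = 0.0246 with the block). Ccnb1 also differed between the numbers in both groups, and it passed with the block but not without. Cks2, a small subunit of cyclin-dependent kinases, had 67.5 and 112 TPM against 155 and 251 TPM and fell by 1.17 on the log2 scale (adjusted p = 0.0205 with the block). Cdc25c, the phosphatase that releases the mitotic kinase from inhibition, had 12.0 and 13.4 TPM against 26.7 and 25.5 TPM, with a log2 fold change of -0.98 that did not pass (adjusted p = 0.153 with the block).

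Spindle and midzone proteins made up the largest group. Hmmr, a protein of spindle microtubules, had 15.5 and 20.6 TPM at 3 h and 45.2 and 59.7 TPM in untreated libraries. The fall was the same within both numbers, -1.49 in each, and the fit with the block gave an SE of 0.0998 and an adjusted p of 0.00299. Without the block its adjusted p was 0.392. Psrc1, a regulator of microtubule dynamics and also a listed p53 target, had 16.7 and 17.3 TPM against 46.3 and 56.2 TPM (-1.53, adjusted p = 0.0223 with the block). Aspm is a spindle pole protein whose loss causes small brains in people. It had 8.63 and 9.13 TPM against 19.2 and 26.2 TPM (-1.25, adjusted p = 0.0219 with the block). Fam83d brings casein kinase 1 to the spindle. It had 7.42 and 10.7 TPM against 18.4 and 25.8 TPM (-1.20, adjusted p = 0.0219 with the block). These proteins serve spindle shape and position, and all had both 3 h values under both untreated ones. Ckap2l, a further spindle protein, had 29.4 and 26.2 TPM against 56.2 and 55.4 TPM (-0.98, adjusted p = 0.0225 with the block). Of 18 spindle proteins tested, 7 fell with the block and 15 had groups that did not overlap, all lower at 3 h, with a median of -0.67. Over all tested genes 0.148% fell with the block and 13.1% were lower without overlap.

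Among the 13 mitotic kinesins, the motors that move chromosomes and spindle poles, 12 were lower at 3 h without overlap and 3 fell with the block, where 13.1% and 0.148% of all tested genes did. Kif2c, which takes microtubules apart at kinetochores, had 40.8 and 41.9 TPM against 78.1 and 68.8 TPM (-0.81, adjusted p = 0.0286 with the block). Kif20a, a midzone kinesin of cytokinesis, had 82.01 and 83.9 TPM against 145 and 140 TPM (-0.77, adjusted p = 0.0370 with the block). Cenpe, the kinetochore motor, had 20.5 and 22.2 TPM against 37.5 and 42.8 TPM (-0.88, adjusted p = 0.0317 with the block). Kif18b, a kinesin of microtubule ends, had 17.7 and 16.3 TPM against 26.4 and 29.2 TPM and did not pass. Of the 10 cytokinesis genes, 8 were lower without overlap, against 13.1% of all tested genes, and the median was -0.71. Prc1, which bundles the microtubules of the midzone, had 43.3 and 47.2 TPM at 3 h and 91.5 and 108 TPM in untreated libraries (-1.12, SE 0.0951, adjusted p = 0.0098 with the block). Racgap1, the Rac GTPase-activating partner of the midzone, had 68.8 and 69.5 TPM against 106 and 113 TPM and did not pass.

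Outside the lists, 6 genes fell, and 5 of them are described here. Kpna2, an importin of nuclear transport, had 251 and 271 TPM against 407 and 434 TPM. Its level was the highest among the 23 and its fall the smallest (-0.69, adjusted p = 0.0323 with the block). Pif1, a DNA helicase, had 2.03 and 1.74 TPM against 9.16 and 12.6 TPM. Its level was the lowest and its fall the largest (-2.03, adjusted p = 0.0158 with the block). Cpne1, a calcium-dependent phospholipid-binding protein, had 12.1 and 18.8 TPM against 40.6 and 46.3 TPM (-1.46, adjusted p = 0.0370 with the block). Hyls1 encodes a centriolar protein and had a log2 fold change of -1.26, and Depdc1b, which links mitotic entry to cell adhesion, had one of -0.99. The linker histone gene H1f0 is held on the list of chromosome condensation. It had 94.2 and 86.7 TPM against 226 and 218 TPM (-1.29, adjusted p = 0.0103 with the block). Its protein is known for accumulating in cells that have stopped dividing. H1f0 was the only called gene among the 10 of its list, whose median was 0.06. The 1 gene that rose was Trim6, an E3 ubiquitin ligase, with 10.4 and 10.7 TPM at 3 h and 3.05 and 4.76 TPM in untreated libraries (1.26, SE 0.140, adjusted p = 0.0225 with the block).

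**Figure D1:**
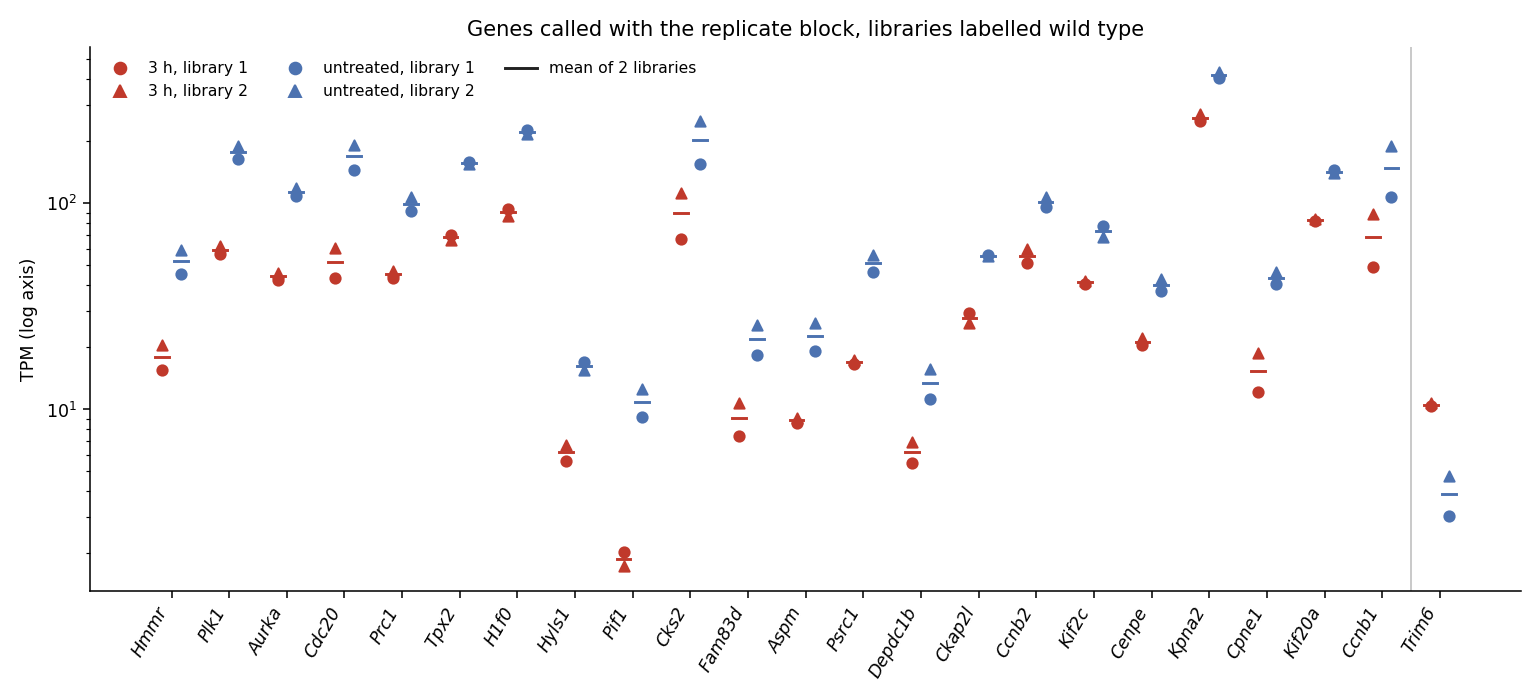
TPM of the genes named in the text, of those called with the replicate block, in the libraries labelled p53 wild type, on a log axis, with 3 h left of untreated in each panel. Circles are number 1, triangles number 2 and bars the mean of 2 libraries. The 22 fallen genes shown have both 3 h points under both untreated points, and Trim6 has them above.

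The mitosis lists as a whole lay lower at 3 h. Of 115 listed genes 114 were tested, with a median log2 fold change of -0.37, and of -0.36 within number 1 and -0.41 within number 2, against 0.02 over all genes. Of all tested genes 30.3% had groups that did not overlap. Of the 114, 64 were lower at 3 h without overlap and 9 higher, where 13.1% and 17.3% of all tested genes were lower and higher. At an unadjusted p under 0.05 there were 39 lower and 1 higher, against 1.51% and 1.87% of all tested genes. At least 1.5-fold lower within both numbers were 30 of the 114, against 0.953% of all tested genes, and 0 were that much higher, against 0.734%. The members were known from earlier results of these data to be low, so these counts describe them and are not a test. Mitochondrial transcripts took 6.7% and 7.63% of TPM at 3 h and 5.96% and 5.93% in untreated libraries. Of these transcripts, 8 of the 9 tested were higher within both numbers, against 5179 of the 15535 tested genes, with a median of 0.24. Without overlap 2 of the 9 were higher, against 17.3% of all tested genes, and 0 had an unadjusted p under 0.05. Their part in the fall was not tested.

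The roles differed in their medians, which were not tested against each other, and their lists share members. Prc1 is on the spindle and cytokinesis lists, Kif20a on the kinesin and cytokinesis lists, and Cenpe on the kinesin and kinetochore lists. The medians ran from -0.71 for cytokinesis and -0.67 for kinesins and for spindle proteins to -0.64 for cyclins and CDC25 phosphatases. Kinetochore genes had -0.37 and the anaphase-promoting complex -0.22. The lists at the other end were chromosome condensation at 0.06 and the transcription factors of the mitotic programme at 0.00. Mybl2, which encodes B-MYB, had 66.7 and 74.7 TPM at 3 h and 49.6 and 51.05 TPM in untreated libraries. Its log2 fold change was 0.48 (without the block, unadjusted p = 0.0087, adjusted p = 1). Lin9, a MuvB subunit, had 11.3 and 13.2 TPM against 9.40 and 10.9 TPM. Neither of these genes passed the test. Among the 12 factors, 3 were higher and 1 lower without overlap, close to the 17.3% and 13.1% of all tested genes.

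**Figure D2:**
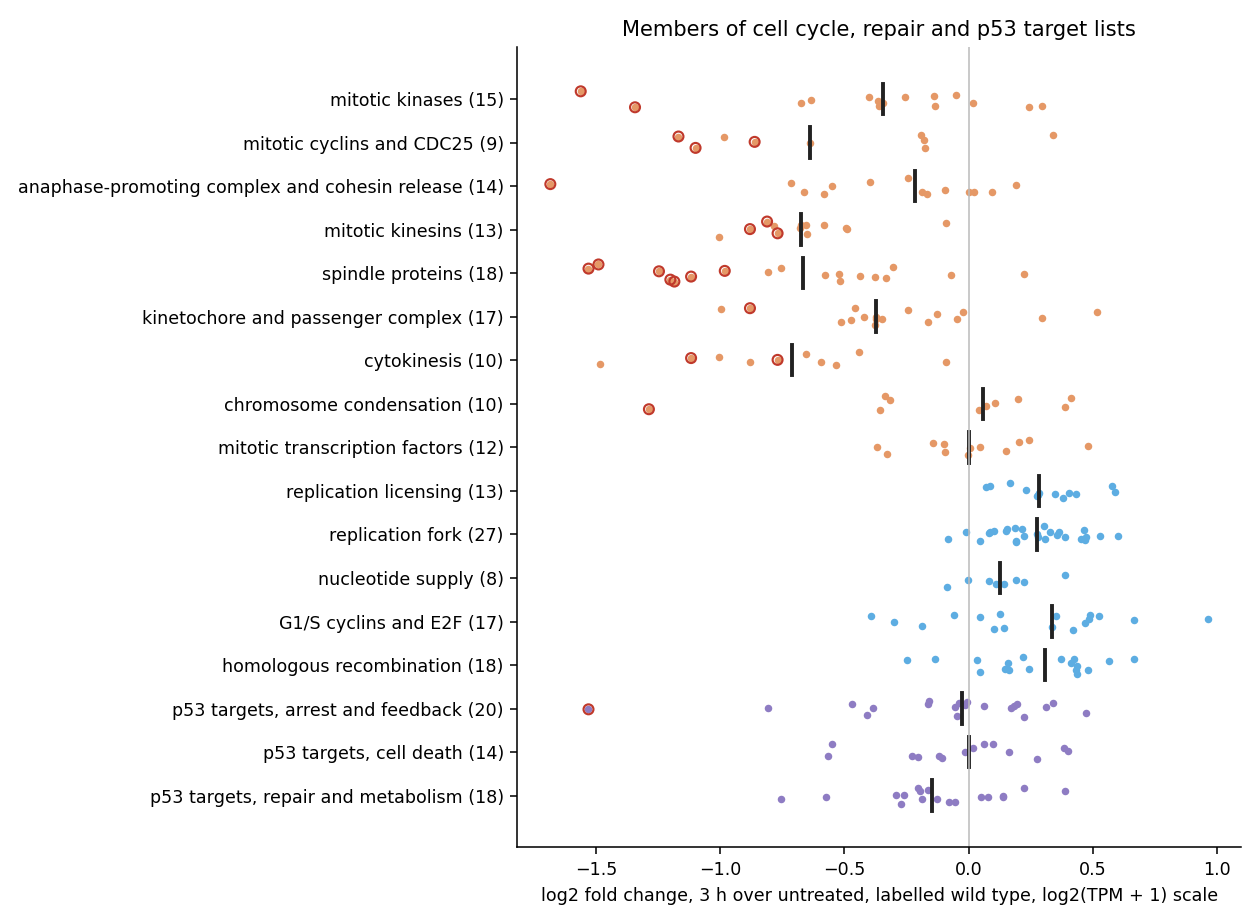
Log2 fold changes at 3 h against untreated, labelled p53 wild type, for every tested gene of each list. Points are genes, bars list medians, and red rings mark genes that fell with the replicate block. The rings gather in the spindle, kinesin, cyclin, kinase and cytokinesis lists, and the replication lists have medians above 0.

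The change was also taken within each library number. Among the 23 fallen genes the 3 h library held 22.2% to 61.6% of the untreated TPM in number 1 and 13.8% to 62.5% in number 2. The fall was larger in number 1 for 10 of them and in number 2 for the others. The fit with the block favours genes whose change is alike within both numbers. The likeness of the 2 falls was therefore partly set by how these genes were chosen. Over all 15535 genes the change within number 1 and that within number 2 correlated at 0.123, given as a description across genes that share their libraries. Of the 114 mitosis genes, 83 were below 0 within both numbers, against 4291 of the 15535. The members and the all-gene count come from the same 4 libraries.

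**Figure D3:**
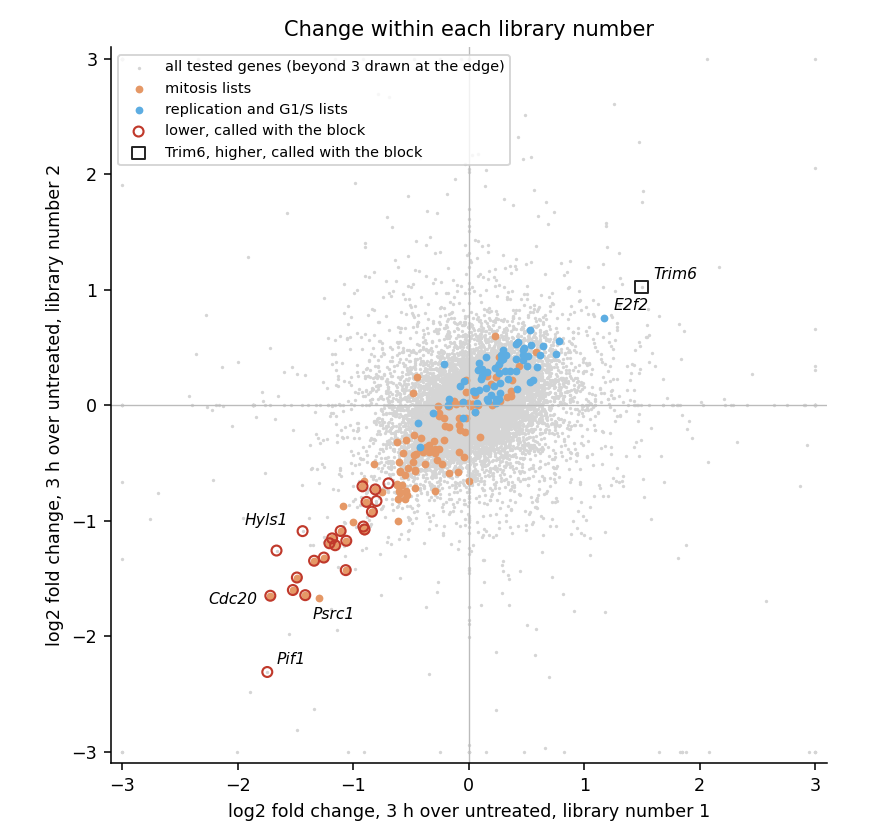
Log2 fold change at 3 h against untreated, labelled p53 wild type, within number 1 (horizontal) and within number 2 (vertical). Grey points are all tested genes, orange the mitosis lists, blue the replication and G1/S lists, red rings mark genes that fell with the block and the square is Trim6. Points beyond 3 are drawn at the edge. The ringed genes lie near the diagonal at the lower left, between -2.31 and -0.68, and the fit with the block favours genes near the diagonal.

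The libraries of 1 h labelled wild type were set beside the untreated and 3 h ones. The groups also differed in other ways. Summed posterior Hox genes had 142 and 156 TPM at 1 h, 111 and 87.0 untreated and 84.05 and 97.8 at 3 h. Summed neuron markers had 185 and 240 TPM at 1 h, 133 and 136 untreated and 146 and 132 at 3 h. Somite markers at 1 h, with 130 and 122 TPM, lay within the untreated pair. Both 1 h libraries had Y-linked transcripts and 0.01 TPM of Xist. The part of these differences in the fall was not tested. Over the 23 genes the median log2 fold change was -0.20 at 1 h against untreated and -0.96 at 3 h against 1 h. Both 1 h libraries were above both 3 h libraries for 22 of the 23. The share over all tested genes was not counted. The 23 were called from these same 3 h libraries, so this count describes them and is not a test. Plk1 had 165 and 191 TPM untreated, 119 and 115 TPM at 1 h and 56.7 and 62.3 TPM at 3 h, an intermediate level at 1 h. Cdc20 had 146 and 193 TPM untreated, 108 and 197 TPM at 1 h and 43.5 and 60.8 TPM at 3 h, so that its 1 h and untreated libraries overlapped. Between 1 h and untreated, 0 genes passed with or without the block (0%). An unadjusted p under 0.05 was had by 1609 genes with the block and 618 without. Between 3 h and 1 h, 0 genes passed without the block (0%) and 928 had an unadjusted p under 0.05. With the block 13 genes passed (0.0837%), 11 lower at 3 h (0.0708%) and 2 higher (0.0129%). All 11 were among the 23: Cdc20, Hmmr, Tpx2, Aurka, Plk1, Ccnb2, Prc1, Pif1, Cks2, Psrc1 and H1f0. The 2 higher ones were Trim6 and Myc, and Myc is named only because the count is small. The comparison of 3 h with 1 h and that of 3 h with untreated share the 3 h libraries, and both 1 h libraries numbered 2 in the series had a ribosomal protein share of 19.6% and 19.7% of TPM, above the 12.0% and 12.2% at 3 h and the 12.8% and 13.2% in untreated libraries labelled wild type.

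**Figure D4:**
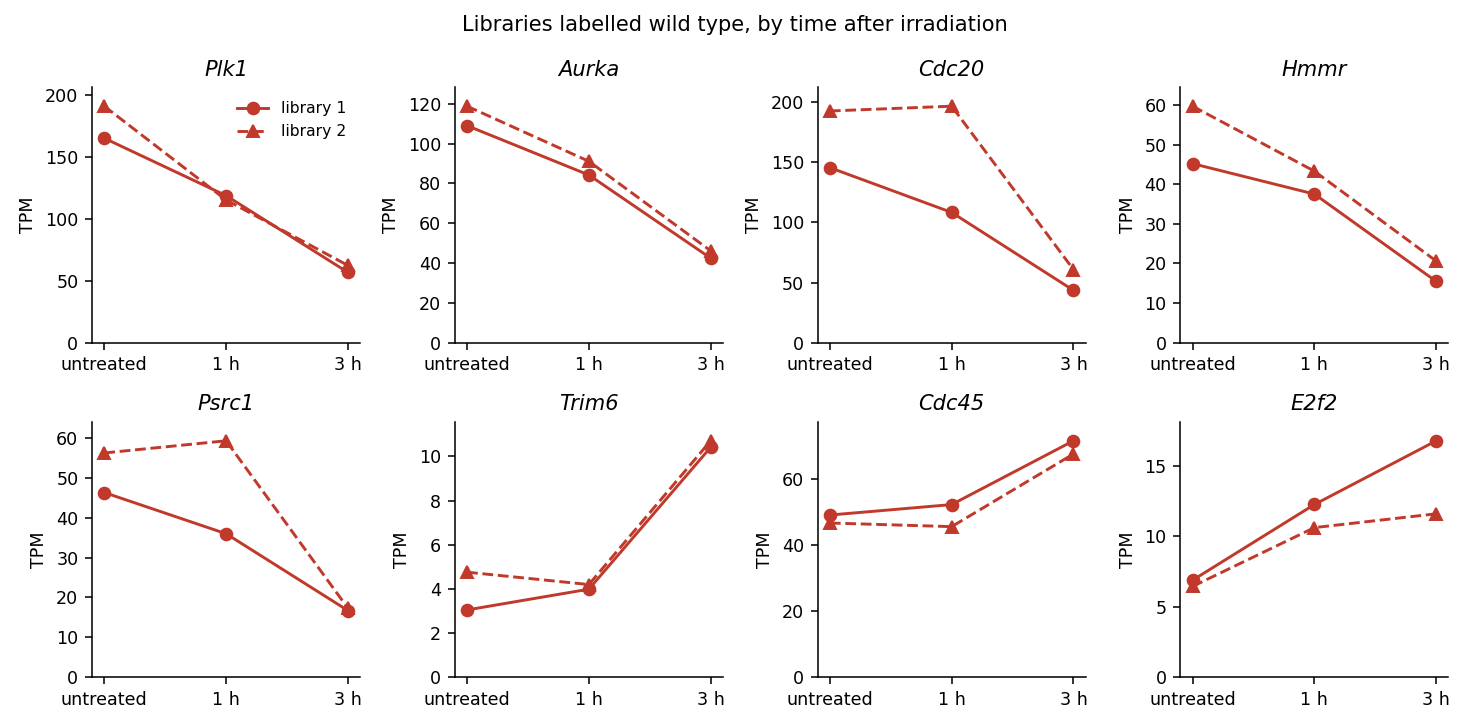
TPM of 8 genes in untreated, 1 h and 3 h libraries labelled p53 wild type, with a line for each library number. Plk1, Aurka, Cdc20, Hmmr and Psrc1 are lowest at 3 h in both numbers, and Trim6, Cdc45 and E2f2 are highest there.

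Genes of DNA replication and of the G1/S transition stood on the other side. None of the 65 tested passed, with or without the block, and their median log2 fold change was 0.27, with 0.26 within number 1 and 0.29 within number 2. Without overlap, 36 were higher and 2 lower at 3 h, where 17.3% and 13.1% of all tested genes were. At an unadjusted p under 0.05, 16 were higher and 0 lower, against 1.87% and 1.51% of all tested genes, and 54 of 65 were above 0 within both numbers, against 5179 of the 15535. The median was 0.25 with median-of-ratios size factors and 0.28 with quantile normalization.

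E2f2, an activating E2F transcription factor, had the largest difference on these lists. It had 16.8 and 11.6 TPM at 3 h and 6.89 and 6.45 TPM in untreated libraries. The log2 fold change was 0.97 (without the block, SE 0.217, unadjusted p = 0.0018, adjusted p = 0.668). Its promoter, the first of 2 listed, lies on the plus strand at chr4:136172024-136172323. It is printed for contrast with those above, in the same build, with capitals for a CCAAT 13 bases before the start and an E2F motif 39 bases after it.
E2f2: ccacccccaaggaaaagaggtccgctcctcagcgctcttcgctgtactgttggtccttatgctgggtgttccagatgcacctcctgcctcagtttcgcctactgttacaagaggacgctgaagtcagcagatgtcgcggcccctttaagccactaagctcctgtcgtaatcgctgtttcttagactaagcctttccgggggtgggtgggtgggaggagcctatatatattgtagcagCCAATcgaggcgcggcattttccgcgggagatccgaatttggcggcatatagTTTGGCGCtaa
No homology region was found in it. Of 51 replication and G1/S genes with a promoter, 33.3% held an E2F motif and 11.8% a homology region in the last 100 bases. The 96 mitosis genes with a promoter had 11.5% and 53.1%. A CCAAT differed less between these lists, with 58.8% of the replication and G1/S promoters and 64.6% of the mitosis promoters. Ccne2, a cyclin that starts S phase, had 91.3 and 64.8 TPM at 3 h and 52.7 and 43.8 TPM in untreated libraries, and Ccne1 had 147 and 126 TPM against 110 and 87.1 TPM. Both were higher in each 3 h library than in either untreated one. Cdc45, a part of the replicative helicase, had 71.6 and 67.6 TPM against 49.1 and 46.7 TPM (0.53), and Mcm10, which helps to load and start it, had 71.4 and 83.8 TPM against 45.4 and 58.5 TPM (0.58). The spread within each pair was smaller than the distance between the pairs for Cdc45. Among the roles, licensing had a median of 0.28 with 9 of 13 genes higher without overlap, and the fork 0.28 with 17 of 27. G1/S regulators had 0.34 with 8 of 17 and nucleotide supply 0.13 with 2 of 8. Over all tested genes 17.3% were higher without overlap and 13.1% lower. The 2 genes that were lower without overlap were G1/S regulators.

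Genes that repair broken DNA lay on the same side as the replication genes, and none passed. The 18 genes of homologous recombination, the repair that copies from the sister chromatid, had a median of 0.31, and 10 were higher without overlap, against 17.3% of all tested genes. Exo1, a nuclease that trims DNA ends, had 106 and 133 TPM at 3 h and 63.04 and 88.2 TPM in untreated libraries (0.67). Brca1 had 51.6 and 57.5 TPM against 39.4 and 38.03 TPM (0.48). None of the 43 double-strand break repair genes passed, and their median was 0.16.

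The p53 targets showed no common direction in the libraries labelled wild type. Of 52 tested, 0 passed without the block and 1 with it, and that gene, Psrc1, fell. Their median log2 fold change was -0.05, with 0.08 within number 1 and -0.09 within number 2. Without overlap 7 were higher and 12 lower, where 17.3% and 13.1% of all tested genes were. At an unadjusted p under 0.05 there were 0 higher and 3 lower, where 1.87% and 1.51% were. None of the 4 genes of the series title passed. Cdkn1a, which encodes p21, had 6.96 and 6.18 TPM at 3 h and 5.91 and 6.6 TPM in untreated libraries, a log2 fold change of 0.06 (SE 0.187). Ccng1, cyclin G1, had 10.6 and 14.04 TPM against 10.1 and 29.2 TPM (-0.47), and untreated number 2 was the only library of the 4 above 15 TPM. Foxo3 had 12.01 and 14.8 TPM against 12.3 and 13.5 TPM (0.04). Fbxw7, the substrate receptor of a ubiquitin ligase, had 15.4 and 15.3 TPM against 12.1 and 13.1 TPM (0.26). All 4 groups but that of Fbxw7 overlapped. Among death genes, Pmaip1 (NOXA) had 2.00 and 2.10 TPM against 0.76 and 2.10 TPM, and Bbc3 (PUMA) had 10.05 and 5.42 TPM against 11.0 and 12.01 TPM.

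In the libraries labelled p53 -/- the p53 targets moved differently. The mitosis lists lay lower under that label too, with a median of -0.62 against -0.12 over all genes. Of their 114 genes, 36 fell and 7 rose without the block, against 5.87% and 6.25% of all tested genes. There 1883 genes passed at 3 h against untreated (12.1%), 971 higher (6.25%) and 912 lower, and 4534 with the block (29.2%). With median-of-ratios size factors 1345 were higher and 763 lower. The median of the p53 targets was 2.29, and 37 of the 52 rose. Cdkn1a had 499 and 444 TPM at 3 h and 6.88 and 5.38 TPM in untreated libraries of that label, and Ccng1 had 563 and 703 TPM against 18.8 and 12.4 TPM. The difference of the responses, label wild type minus label p53 -/-, passed for 536 genes (3.45%), 133 above 0 (0.856%) and 403 below (2.59%). With the block it passed for 2078 (13.4%), 7.39% of all genes above 0 and 5.99% below, and without 1 of the 8 libraries involved for 224 to 308. It was -6.00 for Cdkn1a, -5.75 for Ccng1 (adjusted p = 0.0021), -1.91 for Foxo3 (adjusted p = 0.0166) and -1.48 for Fbxw7 (adjusted p = 0.019), and 34 of the 52 targets were called, all below 0. A rise of p53 targets at 3 h was thus measured under the label p53 -/-, and 0 of the 52 rose under the label wild type.

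Most of the 23 genes were also lower at 3 h under the label p53 -/-. Of the 23 genes, 20 had a log2 fold change below 0 in the libraries labelled p53 -/-, and the median was -1.35. There 15 of them fell without the block and 20 with it, where 5.87% and 18.1% of all tested genes fell. The difference of the responses passed for 1 of the 23 without the block and for 10 with it, 4 below 0 and 6 above. Over all tested genes it passed for 3.45% without the block and for 13.4% with it, 5.99% below 0 and 7.39% above. The 6 were Plk1, Prc1, Tpx2, Ckap2l, Kif2c and Kpna2, whose fall was larger under the label p53 -/-. Plk1 had 36.2 and 40.8 TPM at 3 h and 171 and 190.04 TPM untreated under that label (-2.20), and the difference of 0.64 had an adjusted p of 0.0306 with the block and 0.166 without. The 4 were Psrc1, Fam83d, Cdc20 and Cpne1. Cdc20 had a log2 fold change of -0.50 under the label p53 -/- (difference -1.19, adjusted p = 0.0068 with the block and 0.317 without), and Cpne1 one of 0.01 (adjusted p of the difference 0.0119 with the block).

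Psrc1 and Fam83d went the other way under the label p53 -/-. Fam83d had 25.8 and 44.4 TPM at 3 h and 16.2 and 27.0 TPM untreated there, a log2 fold change of 0.67 (adjusted p = 0.00667 with the block and 0.400 without). For Psrc1 the call needed no block. Under the label p53 -/- it rose, with 106 and 115 TPM at 3 h and 50.5 and 49.5 TPM untreated (1.13, adjusted p = 0.0158), so that the difference of the responses was -2.66 (adjusted p = 0.0035). A similar pair of values was seen for Gtse1 and Ckap2, which are both listed p53 targets and mitosis genes. Gtse1, a microtubule protein that restrains p53, had 22.1 and 22.5 TPM at 3 h and 34.2 and 46.0 TPM untreated under the label wild type (-0.81, adjusted p = 0.0643 with the block). Under the label p53 -/- it had 197 and 266 TPM against 34.01 and 39.99 TPM, and the difference was -3.41. Ckap2 had 20.5 and 25.7 TPM against 35.2 and 44.1 TPM under the label wild type (-0.75), and its difference was -2.13. Trim6 rose under both labels, less under wild type: 42.04 and 49.3 TPM against 5.14 and 6.35 TPM under the label p53 -/- gave 2.79, and the difference was -1.53 (adjusted p = 0.0254).

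**Figure D5:**
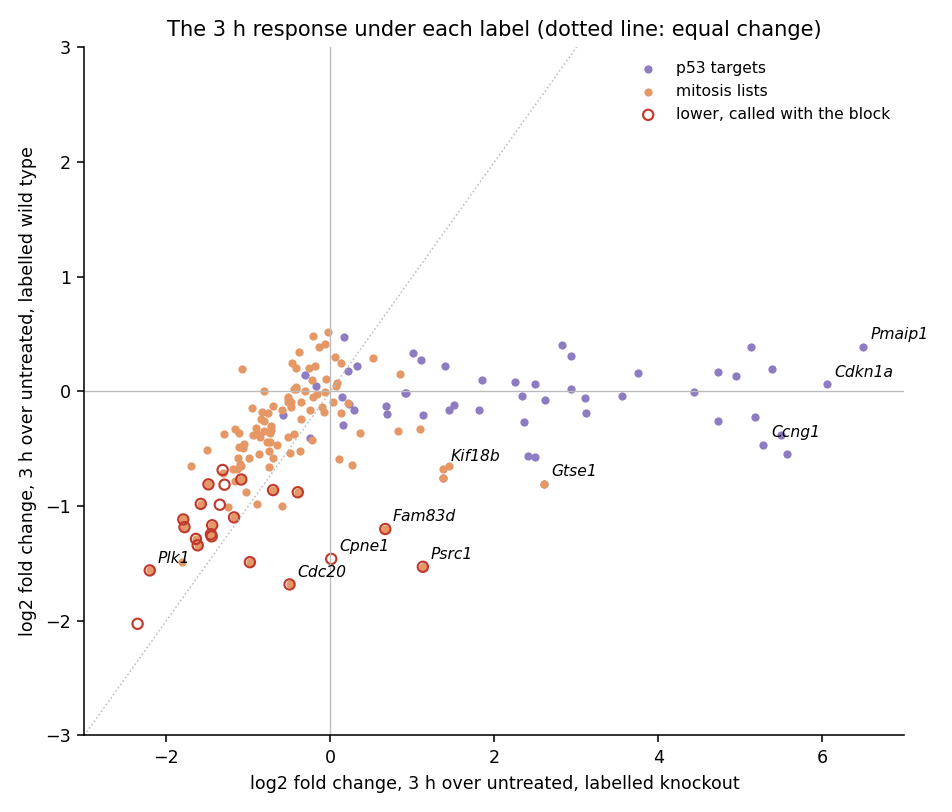
Log2 fold change at 3 h against untreated under the label p53 wild type (vertical) and under the label p53 -/- (horizontal). Purple points are p53 targets, orange points mitosis genes and red rings mark genes that fell with the block under the label wild type, and the dotted line is equal change. The p53 targets spread to the right near a vertical value of 0, and most ringed genes lie at the lower left, with Psrc1 at the lower right.

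Ccne1 differed as well: it was higher at 3 h under the label wild type (0.47, not called) and had a log2 fold change of -0.85 under the label p53 -/-, a difference of 1.32 (adjusted p = 0.0209). The replication and G1/S lists as a whole had a median of 0.27 under the label wild type and -0.13 under the label p53 -/-. Part of this contrast moves with the scaling, since the median of all genes was 0.02 under the label wild type and -0.12 under the label p53 -/-. With median-of-ratios size factors the median of these lists under the label p53 -/- was 0.01, and the difference of the responses passed for 130 genes above 0 and 582 below.

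Markers of other tissues were looked at beside these results. Visceral endoderm markers, from the yolk sac layer around the embryo, had summed levels of 108 and 157 TPM at 3 h and 97.5 and 58.0 TPM in untreated libraries. Of 10 tested, 7 were higher at 3 h without overlap, against 17.3% of all tested genes, and 0 passed. Their median was 0.19 within number 1 and 1.34 within number 2. Trophoblast markers summed to 105 and 108 TPM against 113 and 134 TPM, with Prl3d1, Prl2c2, Tpbpa and Gcm1 below the filter. Decidua markers summed to 49.2 and 52.8 TPM against 58.5 and 61.3 TPM, with Prl8a2, Bmp8a and Prl3c1 below it. White blood cell markers summed to 2.60 and 2.41 TPM against 3.16 and 3.60 TPM, with Ptprc, Cx3cr1, Aif1 and Lyz2 below it. The part of any of these in the fall of the mitosis genes was not tested.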

How the data were processed

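The authors deposited TPM for 53647 gene IDs in 12 libraries, each built from 500 ng of RNA and read from both ends over 75 bp, per the labels' protocols. The submitters' processing notes name build GRCm39 and, among the tools, RSEM 1.3.3 and STAR 2.7.3a, besides DESeq2 1.42.1, R 4.3.3 and HTSeq 0.12.3. The sources used here give neither annotation release nor strand setting, so reads of paralogs and of overlapping genes may not be separable. The TPM columns sum to 999999.1 to 1000000.8 and keep no depth.

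Symbols came from an annotation of an earlier build and matched 52093 IDs (97.1%). Of the tested genes 42 have none. The 15535 genes that came to 1 TPM or more in 2 or more libraries were fitted with limma 3.58.1 in R 4.3.3 as log2(TPM + 1), each group of the 12 libraries having its mean, with a trend of the spread and Benjamini-Hochberg adjustment over all 15535. Tests are two-sided, calling required an adjusted p below 0.05, and fold changes on this scale understate those of low genes. The fit left 6 residual degrees of freedom, or 5 once the replicate block was added. The numbers 1 and 2 come from the labels. Deviations of same-numbered libraries from their group means correlated at 0.327 to 0.796 across genes in the 15 pairs of groups, and at 0.411 between 3 h and untreated, label wild type. This was taken as pairing. No count test was run.

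The comparison, its members and the lists were chosen with earlier results of these data known. Named genes are Trp53, the 4 title genes, genes called with or without the block, the 10 rising and 10 falling genes with the largest change at an unadjusted p under 0.05, a mean TPM of at least 5 and no overlap, and the 4 members of each list with the smallest p. Promoters come from RefSeq (GRCm38.p6), a build other than that of the TPM. Results for some single genes are not reported here. Alternatives were a pseudocount of 0.1, no filter, median-of-ratios size factors, quantile normalization, no trend, other sets of libraries in the fit, a fold of at least 2, the replicate block, and each library left out. Plots were made in matplotlib 3.10.9 under Python 3.11.15.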

Additional observations from a re-analysis of the deposited data

Results flagged for a closer look

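The results here drew attention because the response at 3 h differed between the labels in a test of the difference itself (limma, label wild type minus label p53 -/-), which passed for 536 genes. Among the title genes the difference on the log2 scale was -6.00 for Cdkn1a, -5.75 for Ccng1, -1.91 for Foxo3 and -1.48 for Fbxw7. Among other p53 targets it was -6.11 for Pmaip1, -4.74 for Tap1, which encodes a peptide transporter, -2.98 for Bbc3, -2.43 for Pidd1 and -1.18 for Ppm1d, which encodes a phosphatase that shuts down p53.

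Of genes with a part in the spindle it was -3.41 for Gtse1, -2.66 for Psrc1, -2.13 for Ckap2 and -2.05 for Kif18b. The cell cycle gene Ccne1 had 1.32, and the inhibitor gene Cdkn1b, which encodes p27, had 1.20. Of the remaining named genes the immediate early gene Fos had -3.47, Hmox1 (heme oxygenase 1) -1.66, Trim6 -1.53, the hexokinase gene Hk2 1.77 and the pseudogene Pabpc1l2b-ps 3.04. The 2 labels share no library in this test, and the labels' match to the genotypes was not tested.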

How the results depend on the processing

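With 2 libraries a group and an unknown depth, the count of calls at 3 h under the label wild type was the least stable result. It was 0 as fitted, 15 with no filter on low values, 4 with median-of-ratios size factors, 3 with quantile normalization, 1 without both 1 h groups, 24 with the replicate block and 47 with the block and without both 1 h groups, and 0 to 1 with a library left out. The alternatives to the count of 24 were chosen after seeing the data. Size factors gave 38 and leaving out both 1 h groups gave 47, each holding all 24. No filter gave 30, holding 22 of the 24, and quantile normalization gave 25, holding 23. No trend gave 16, holding 15, and a fold of at least 2 kept 16. Calls between 3 h and 1 h numbered 4 with no filter, 13 with the block and 0 to 1 with a library left out. Those between 1 h and untreated numbered 4 with no filter and 0 to 2 with a library left out.

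The difference of the responses was called for 2078 genes with the block, 3453 with the block and without both 1 h groups and 224 to 484 with a library left out. Under the label p53 -/-, calls numbered 1132 with a fold of at least 2, 466 with only the groups compared, 4534 with the block, 5868 with the block and without both 1 h groups and 820 to 1935 with a library left out. The median of the mitosis lists lay between -0.46 and -0.29 with a library left out. Changes of sign came from leaving out a library of the label wild type: Cdkn1a lay between -0.0134 and 0.14, Foxo3 between -0.10 and 0.18, Pmaip1 between -0.0237 and 0.79 and Ccng1 between -1.19 and 0.25. The cause was not tested. Over 86 named genes and all alternatives, 1734 values kept direction and call, 66 kept direction and came to pass, and 6 changed sign.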

Other observations

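Genes of hypoxia and glycolysis lay lower at 3 h in the libraries labelled wild type, and 0 of 12 passed. Their median log2 fold change was -0.26, with 6 lower and 0 higher without overlap, where 13.1% and 17.3% of all tested genes were. Hk2 had 30.5 and 30.7 TPM at 3 h and 45.8 and 48.0 TPM in untreated libraries (-0.60), and Slc2a1, the main glucose transporter, had 177 and 218 TPM against 283 and 316 TPM (-0.60). Both had pairs that were closer within a time than between times. Slc2a1 had 175 and 162 TPM at 1 h, as low as at 3 h.

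Some genes were higher at 3 h without passing the test. Fancg, of the Fanconi anaemia repair pathway, had 15.7 and 15.9 TPM against 8.60 and 6.18 TPM (1.02). Pnma2, a gene of neurons, had 5.05 and 5.84 TPM against 1.64 and 1.64 TPM (1.28). H2-Q4, a class I histocompatibility gene whose close relatives may share its reads, had 14.3 and 12.7 TPM against 7.11 and 6.84 TPM (0.86). Of 9 NF-kappaB targets 3 were higher without overlap and 0 lower, against 17.3% and 13.1% of all tested genes. Their median was 0.09, with 0.25 within number 1 and -0.06 within number 2, and they include Birc3 (0.72) and Relb (0.68). The 19 immediate early genes had a median of 0.00.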
